A study of Arabidopsis thaliana with 12 samples.

Results

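The DNA methylation machinery of Arabidopsis thaliana was followed here through 40 genes, picked by gene identifier from the 37336 genes counted in each library. They comprise the VIM family, the DNA methyltransferases with the chromatin remodeller DDM1, and the DNA demethylases. A group of histone-modifying enzymes and the RNA-directed DNA methylation (RdDM) pathway complete the list. Of the 40 genes, 37 passed the filter on low counts, against 20664 of all 37336 genes, and 3 did not. These were VIM5, DRM1 and AGO9. RNA-Seq was performed on 4-day-old seedlings of the Columbia-0 background grown on Murashige and Skoog medium under long days. Each of the 4 groups had 3 libraries, A, B and C, described as independent biological replicates. WT 29 °C was wild type kept at 23 °C and moved to 29 °C for 6 h. The length of this treatment comes from the published methods, since the sample labels give only the growth temperature. OE APOLO-1 was a single line over-expressing the long noncoding RNA APOLO in all tissues from the 35S promoter, held at 23 °C. The vim1-3 group was a single T-DNA insertion line of VIM1, held at 23 °C. The line is described as a knockdown. WT 23 °C was wild type held at 23 °C.

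Cytosine methylation in plants occurs in CG, CHG and CHH contexts. CG methylation is copied after replication by MET1, which is brought to hemimethylated sites by VIM proteins, E3 ubiquitin ligases with a methylcytosine-binding SRA domain. CHG and CHH methylation is kept by the chromomethylases CMT3 and CMT2, which read histone H3 methylation set by SUVH4, SUVH5 and SUVH6. DDM1 opens heterochromatin to these enzymes. In RdDM, RNA polymerase IV (Pol IV) transcripts are made double-stranded by RDR2 and cut by DCL3 into small RNAs. These are loaded on ARGONAUTE proteins, pair with RNA polymerase V (Pol V) transcripts and direct DRM2 to the site. ROS1, DME, DML2 and DML3 are glycosylases that cut methylated cytosine out of DNA. In seedlings this machinery silences transposons and restrains the genes that lie near them.

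The 6 VIM genes sit on chromosomes 1, 4 and 5, and their sequences bear on how far their counts can be separated. VIM4 (AT1G66040) and VIM2 (AT1G66050) are neighbours that are transcribed away from each other, with 2582 bases between their starts. VIM5 (AT1G57800) and VIM1 (AT1G57820) are neighbours on the minus strand, 1697 bases apart. Of 1570 exonic stretches of 75 bases in VIM2, the length of a sequencing read, 888 (56.6%) were also found in VIM4. The same 888 stretches made up 64.8% of the 1371 stretches of VIM4, and 76 of 1602 (4.74%) of VIM3 (AT5G39550) were shared. No stretch of VIM1, VIM5 or VIM6 (AT4G08590) was found in another gene. The stretch of 75 coding bases below, given on the sense strand of RefSeq assembly TAIR10.1, is shown because a read from it cannot be assigned to VIM2, VIM4 or VIM3. Capitals mark the 9, 9 and 11 bases at which VIM1, VIM5 and VIM6 differ from VIM2.
VIM2 chr1:24590953-24591027 plus strand: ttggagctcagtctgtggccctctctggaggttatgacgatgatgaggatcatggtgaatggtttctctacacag
VIM4 chr1:24585406-24585480 minus strand: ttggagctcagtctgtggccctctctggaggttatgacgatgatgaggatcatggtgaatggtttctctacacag
VIM3 chr5:15838971-15839045 minus strand: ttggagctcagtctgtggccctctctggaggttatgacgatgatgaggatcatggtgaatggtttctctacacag
VIM1 chr1:21416378-21416452 minus strand: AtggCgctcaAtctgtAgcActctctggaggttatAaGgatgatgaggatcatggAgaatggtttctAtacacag
VIM5 chr1:21410354-21410428 minus strand: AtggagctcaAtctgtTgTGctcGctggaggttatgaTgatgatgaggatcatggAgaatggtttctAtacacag
VIM6 chr4:5465159-5465233 minus strand: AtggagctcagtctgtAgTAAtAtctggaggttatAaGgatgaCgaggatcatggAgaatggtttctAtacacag

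The coding start of VIM2 is shown for the opposite reason, since reads there separate the family members. Capitals again mark bases that differ from VIM2, of which VIM4 has 2, VIM3 has 4, VIM1 has 21 and VIM5 has 27 in the first 75 coding bases.
VIM2 chr1:24589534-24589608 plus strand: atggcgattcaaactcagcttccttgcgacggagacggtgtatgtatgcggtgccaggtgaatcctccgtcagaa
VIM4 chr1:24586607-24586681 minus strand: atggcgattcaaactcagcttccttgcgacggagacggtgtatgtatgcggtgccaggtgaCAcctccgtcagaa
VIM3 chr5:15840429-15840503 minus strand: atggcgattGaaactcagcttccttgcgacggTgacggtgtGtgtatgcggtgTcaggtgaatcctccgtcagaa
VIM1 chr1:21417828-21417902 minus strand: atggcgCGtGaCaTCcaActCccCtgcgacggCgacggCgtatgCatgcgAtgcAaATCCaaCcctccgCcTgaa
VIM5 chr1:21412209-21412283 minus strand: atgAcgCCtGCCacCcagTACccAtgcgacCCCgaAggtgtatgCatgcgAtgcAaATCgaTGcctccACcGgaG

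Libraries held 8824476 to 22925019 counts, and levels are given as normalised read counts, that is, counts scaled by edgeR's TMM factors to a common library of 18018231 counts. A count of 3 was worth 2.28 to 6.49 normalised counts, depending on the library. The library labelled WT 23 °C A did not match WT 23 °C B and C in APOLO, and its label could not be checked. It held 1197 counts of APOLO (AT2G34655), whereas WT 23 °C B and C held 2 and 1. The WT 29 °C libraries held 2, 8 and 5, the OE APOLO-1 libraries 4984, 8949 and 11720, and the vim1-3 libraries 18, 10 and 6. WT 23 °C B and C stood apart in another way. On the first principal component (58.1% of the variance over all genes tested) they lay at −149 and −103, the library labelled WT 23 °C A lay at −29.7 and the other 9 libraries at 0.332 to 55.1. The summed level of 5 jasmonate-response genes was 8319 and 5944 in WT 23 °C B and C, 859 in the library labelled WT 23 °C A and 113 to 270 in the rest. Summed root markers (4 genes) were 2847 to 3413 in WT 29 °C, 2403 to 2636 in OE APOLO-1, 2094 to 2244 in vim1-3 and 624 to 1710 in WT 23 °C. The 4 green tissue markers that define leafy seedlings summed to at least 454463 in every library. Single genes did not all follow these sums, here as mean normalised counts per kb of exon in WT 29 °C and WT 23 °C. Of the root markers, SCR stood at 216 and 223, and EXP7 at 779 and 118. Of the green tissue markers, RBCS1A stood at 97233 and 140390, and LHCA1 at 154465 and 104104. VSP1, a jasmonate-response gene, stood at 52.7 and 28.0, whereas the other 4 were lower in WT 29 °C. Whole seedlings were sampled, so a smaller share of a cell type and less RNA per cell cannot be told apart. Every comparison with WT 23 °C therefore rests on 3 libraries that differ among themselves. Calls of single genes against WT 23 °C are given with all 3 and without the library labelled WT 23 °C A. A setting chosen after seeing the data left out WT 23 °C B and C. It leaves the library labelled WT 23 °C A as the only reference, with no spread within its group. For that setting only log2 values are given. The part of these differences in the results was not tested.

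VIM1, the family member disrupted in vim1-3, was nearly without reads in that line and had its highest levels in OE APOLO-1 and WT 29 °C. Its normalised read counts were 159.6, 182 and 197 in the WT 29 °C libraries A, B and C, 201, 209 and 183 in OE APOLO-1, 3.84, 4.29 and 0.761 in the vim1-3 libraries (5, 3 and 1 raw counts) and 127, 71.7 and 121 in WT 23 °C. Neither WT 29 °C nor OE APOLO-1 overlapped WT 23 °C, whereas these 2 groups overlapped each other. Every adjusted p in this text comes from the quasi-likelihood test of edgeR, adjusted by the Benjamini-Hochberg method over all genes tested. The log2 fold change of vim1-3 over WT 23 °C was −5.21 (SE 0.37, adjusted p = 4.72e-05). OE APOLO-1 over vim1-3 stood at 6.11 (SE 0.36, adjusted p = 7.22e-06), and WT 29 °C over vim1-3 at 5.98 (SE 0.36, adjusted p = 1.67e-06). Taking an adjusted p under 0.01 as the threshold, the 1.70-fold higher level in WT 29 °C over WT 23 °C did not pass, at a log2 value of 0.76 (SE 0.23, adjusted p = 0.0224). Neither did OE APOLO-1 over WT 23 °C at 0.90 (SE 0.23, adjusted p = 0.0156). Without the library labelled WT 23 °C A both passed, at 0.97 (adjusted p = 0.00202) for WT 29 °C and 1.0999 (adjusted p = 0.000827) for OE APOLO-1. When WT 23 °C B and C were left out, the log2 values were 0.50 for WT 29 °C and 0.64 for OE APOLO-1. WT 29 °C over OE APOLO-1 was −0.14 (SE 0.22, adjusted p = 0.725).

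VIM2, a close relative of VIM1, was lower in WT 29 °C and in OE APOLO-1. It had 8.40, 9.97 and 7.35 normalised counts in WT 29 °C, 13.97, 13.1 and 8.38 in OE APOLO-1, 16.1, 14.3 and 23.6 in the vim1-3 libraries and 24.2, 33.7 and 41.1 in WT 23 °C, so that each WT 23 °C library lay above all 9 others. Means were 8.57 ± 1.32 in WT 29 °C, 11.8 ± 3.00 in OE APOLO-1, 18.0 ± 4.92 in vim1-3 and 33.0 ± 8.48 in WT 23 °C (SD, n = 3 each). VIM2 fell by 1.90 on the log2 scale in WT 29 °C relative to WT 23 °C (SE 0.34, adjusted p = 0.00125) and by 1.45 in OE APOLO-1 relative to WT 23 °C (SE 0.33, adjusted p = 0.00919). The value of vim1-3 over WT 23 °C, −0.81 (SE 0.31, adjusted p = 0.0880), did not pass. The WT 29 °C call stood at −2.09 (adjusted p = 0.000218) without the library labelled WT 23 °C A, and the log2 value was −1.49 without WT 23 °C B and C. For OE APOLO-1 it was −1.65 (adjusted p = 0.00150) without the library labelled WT 23 °C A and −1.05 without WT 23 °C B and C. The OE APOLO-1 call held in 1 of the 12 fits that left out a library.

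VIM4 gave a different order from its near-copy VIM2. Its normalised counts were 4.20, 4.98 and 4.09 in WT 29 °C, 13.97, 6.53 and 14.9 in OE APOLO-1, 19.2, 21.5 and 12.2 in the vim1-3 libraries and 7.77, 3.16 and 4.33 in WT 23 °C, from 2 to 25 raw counts a library. The vim1-3 libraries were all above both wild-type groups. The difference passed the threshold for WT 29 °C over vim1-3, −1.94 (SE 0.45, adjusted p = 0.00805), but not for vim1-3 over WT 23 °C, 1.67 (SE 0.46, adjusted p = 0.0257). The value of vim1-3 over WT 23 °C became 2.23 (adjusted p = 0.00727) without the library labelled WT 23 °C A and 1.13 without WT 23 °C B and C.

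Because VIM2 and VIM4 share so many exonic stretches, the sum of VIM2 and VIM4 was also tested as a single gene. The sum averaged 13.0 ± 1.79 in WT 29 °C, 23.6 ± 4.20 in OE APOLO-1, 35.6 ± 0.274 in vim1-3 and 38.1 ± 6.82 in WT 23 °C (SD, n = 3 each). It fell by 1.52 on the log2 scale in WT 29 °C relative to WT 23 °C (SE 0.25, adjusted p = 0.000749) and by 1.45 relative to vim1-3 (SE 0.25, adjusted p = 0.00133). For OE APOLO-1 over WT 23 °C the log2 value of the sum was −0.67 (SE 0.24, adjusted p = 0.0626), which did not pass, and for vim1-3 over WT 23 °C it was −0.07 (SE 0.23, adjusted p = 0.946). The sum was not refitted with WT 23 °C libraries left out. The share of the summed counts assigned to VIM2 was 66.7%, 66.7% and 64.3% in WT 29 °C, 50%, 66.7% and 36.0% in OE APOLO-1, 45.7%, 40% and 66.0% in the vim1-3 libraries, and 75.7%, 91.4% and 90.5% in WT 23 °C. With 12 to 47 summed counts a library, the exact Clopper-Pearson 95% intervals were wide, for instance 34.9% to 90.1% in WT 29 °C A and 76.9% to 98.2% in WT 23 °C B, and they cover counting error only. How reads that match both genes were counted is not given in the sources used here, so the separate VIM2 and VIM4 values are uncertain.

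**Figure D1:**
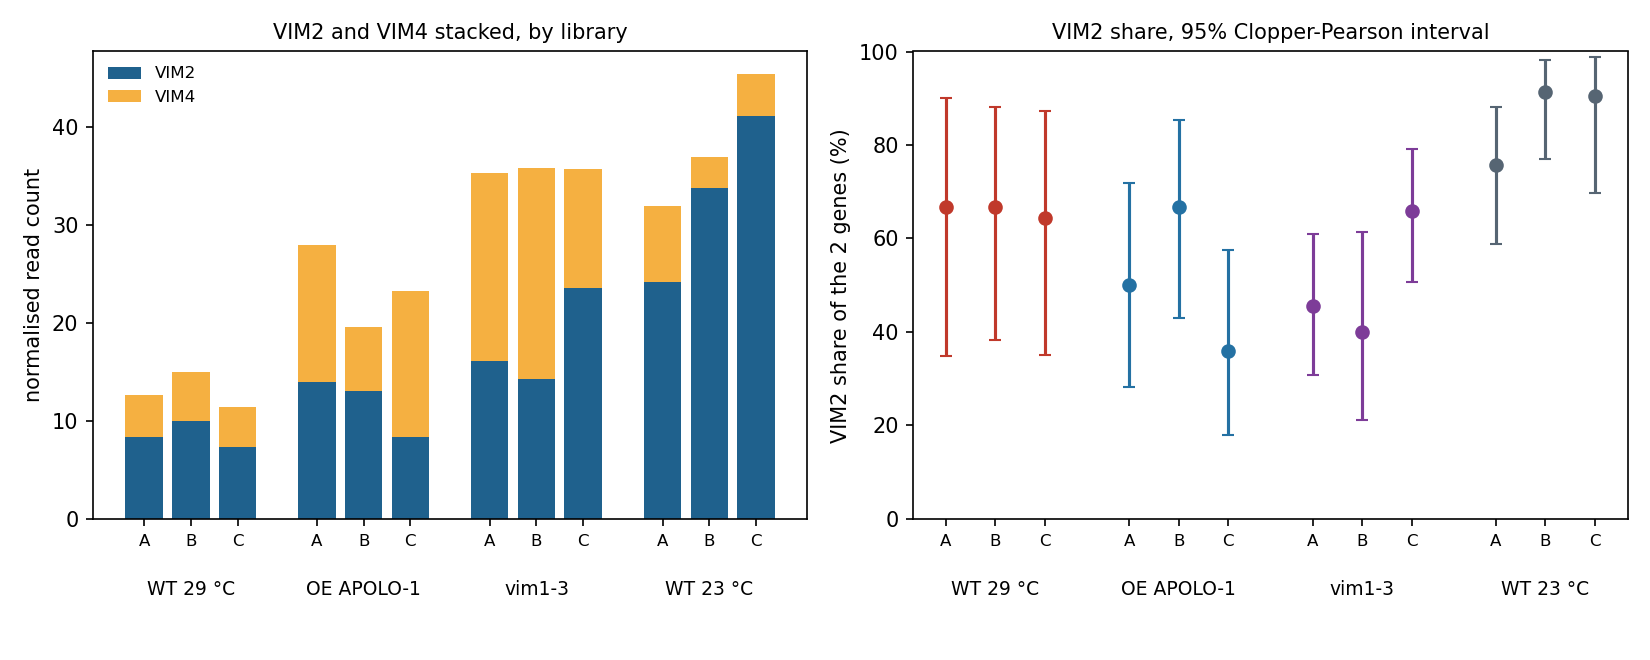
Left, normalised read counts assigned to VIM2 and VIM4, stacked for each of the 12 libraries; right, the share of their summed raw counts assigned to VIM2, with its exact Clopper-Pearson 95% interval. The sum was 11.4 to 15.0 in WT 29 °C and 31.9 to 45.4 in WT 23 °C, and the VIM2 share was 36.0% to 66.7% in OE APOLO-1 and 75.7% to 91.4% in WT 23 °C.

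VIM6, also called ORTHRUS-LIKE, rose in WT 29 °C relative to WT 23 °C and to OE APOLO-1. With all libraries and the count filter, none of the other tested family members rose relative to WT 23 °C. VIM1 and VIM5 rose as well without the library labelled WT 23 °C A, and VIM5 without the count filter. In the former fit VIM5 passed the count filter through its WT 29 °C counts, which favours a rise in that group. The levels of VIM6 were 87.2, 114 and 121 in WT 29 °C, 61.0, 69.0 and 48.4 in OE APOLO-1, 73.6, 55.8 and 68.5 in the vim1-3 libraries and 47.5, 48.5 and 47.6 in WT 23 °C. The WT 23 °C libraries, which differ elsewhere, were close to each other here, at a mean of 47.9 ± 0.553 (SD, n = 3), and the 3 WT 29 °C libraries lay above all 9 others. WT 29 °C over WT 23 °C was 1.16 (SE 0.20, adjusted p = 0.000789), and WT 29 °C over OE APOLO-1 was 0.85 (SE 0.19, adjusted p = 0.00874). WT 29 °C over vim1-3 was 0.69 (SE 0.19, adjusted p = 0.0170) and did not pass. The comparison with WT 23 °C was 1.16 (adjusted p = 0.000675) without the library labelled WT 23 °C A and 1.18 without WT 23 °C B and C. An exonic share of 5.59% overlaps a gene on the opposite strand.

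VIM5 lies next to VIM1 and did not pass the filter. It had 17, 9 and 16 raw counts in WT 29 °C, 4, 7 and 2 in OE APOLO-1, 0, 2 and 1 in the vim1-3 libraries and 2, 1 and 0 in WT 23 °C, so every WT 29 °C library lay above all others. The depth-scaled ratio of the pooled counts was 11.3 for WT 29 °C over WT 23 °C (95% counting interval 3.62 to 57.1), 14.6 over vim1-3 (4.67 to 73.7) and 2.98 over OE APOLO-1 (1.57 to 6.05). OE APOLO-1 over WT 23 °C had a ratio of 3.79 (1.04 to 20.8). Without a filter on low counts (26500 genes) VIM5 passed for WT 29 °C over WT 23 °C (adjusted p = 0.00553) and over vim1-3 (adjusted p = 0.00444). It did not pass for WT 29 °C over OE APOLO-1 (adjusted p = 0.129) or for OE APOLO-1 over WT 23 °C (adjusted p = 0.187), although both counting intervals, which cover counting error only, lie above 1.

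VIM3, which acts with VIM1 and VIM2 in keeping CG methylation, passed in no comparison. Its levels were 80.9, 101 and 94.8 in WT 29 °C, 121, 116 and 91.2 in OE APOLO-1, 124, 87.3 and 109 in the vim1-3 libraries and 87.2, 45.3 and 80.0 in WT 23 °C. WT 23 °C B was the lowest of the 12 libraries. OE APOLO-1 over WT 23 °C was 0.63 (SE 0.24, adjusted p = 0.0748), against 0.88 (adjusted p = 0.00953) without the library labelled WT 23 °C A and 0.32 without WT 23 °C B and C. Summed over all 6 genes, the family stood at 405 ± 41.7 in WT 29 °C, 394 ± 40.1 in OE APOLO-1, 212 ± 25.2 in vim1-3 and 264 ± 52.7 in WT 23 °C (SD, n = 3 each). Leaving VIM1 out, the sums were 226 ± 23.5 in WT 29 °C, 197 ± 27.8 in OE APOLO-1, 209 ± 25.6 in vim1-3 and 158 ± 22.6 in WT 23 °C, so that the mean of vim1-3 lay between those of WT 29 °C and WT 23 °C.

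The other 2 members that fell relative to WT 23 °C or rose at 29 °C at the threshold came from demethylation and from histone methylation. DML2 (AT3G10010), a DNA glycosylase that removes methylated cytosine, had 119, 93.7 and 124 normalised counts in WT 29 °C, 109, 103 and 94.9 in OE APOLO-1, 133, 106 and 105 in the vim1-3 libraries and 175, 228 and 171 in WT 23 °C. All 9 other libraries lay below the 3 of WT 23 °C. DML2 fell by 0.77 on the log2 scale in WT 29 °C relative to WT 23 °C (SE 0.16, adjusted p = 0.00330) and by 0.91 in OE APOLO-1 (SE 0.17, adjusted p = 0.00277). In vim1-3 it stood at −0.74 (SE 0.16, adjusted p = 0.0102), just outside the threshold. Between the 3 groups other than WT 23 °C the log2 values of DML2 were −0.17 to 0.13. With the library labelled WT 23 °C A left out, the values against WT 23 °C were −0.85 (adjusted p = 0.000887) for WT 29 °C, −0.98 (adjusted p = 0.00031) for OE APOLO-1 and −0.81 (adjusted p = 0.00163) for vim1-3. With WT 23 °C B and C left out they were −0.64, −0.78 and −0.60. DML2 was highest in WT 23 °C B, the library with the highest jasmonate-response sum, and the part of that in the result was not tested.

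SUVH4 (AT5G13960), also known as KRYPTONITE, a histone H3 methyltransferase on whose mark CMT3 depends, rose in WT 29 °C. It had 190.1, 182 and 207 normalised counts in WT 29 °C, 141, 155 and 131 in OE APOLO-1, 152, 153 and 153 in the vim1-3 libraries and 142, 145 and 128 in WT 23 °C, with the WT 29 °C libraries above all others. WT 29 °C over WT 23 °C was 0.47 (SE 0.11, adjusted p = 0.00622), that is, 1.39-fold. The values were 0.44 (SE 0.11, adjusted p = 0.0165) over OE APOLO-1 and 0.34 (SE 0.11, adjusted p = 0.0380) over vim1-3, which did not pass. The call held in 4 of the 12 fits that left out a library. Against WT 23 °C SUVH4 stood at 0.49 (adjusted p = 0.00810) without the library labelled WT 23 °C A and at 0.44 without WT 23 °C B and C.

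A further 3 members differed between WT 29 °C and vim1-3, a comparison with no WT 23 °C library in it. CMT3 (AT1G69770), the chromomethylase of CHG sites, had 228, 240.2 and 259.8 in WT 29 °C, 217, 236 and 162 in OE APOLO-1, 157, 142 and 164 in the vim1-3 libraries and 202, 196 and 186 in WT 23 °C. WT 29 °C over vim1-3 was 0.65 (SE 0.14, adjusted p = 0.00444). DDM1 (AT5G66750), the remodeller that lets methyltransferases into heterochromatin, had 119, 111 and 124 in WT 29 °C, 88.9, 104 and 80.0 in OE APOLO-1, 81.3, 63.0 and 63.1 in the vim1-3 libraries and 88.1, 74.8 and 60.6 in WT 23 °C. WT 29 °C over vim1-3 was 0.76 (SE 0.18, adjusted p = 0.00753). In both genes the WT 29 °C libraries lay above every vim1-3 library. AGO4 (AT2G27040), the main ARGONAUTE of RdDM, had 498, 490.4 and 511 in WT 29 °C, 449.7, 418 and 437 in OE APOLO-1, 319, 381 and 362 in the vim1-3 libraries and 353, 501 and 443 in WT 23 °C. WT 29 °C over vim1-3 was 0.50 (SE 0.12, adjusted p = 0.00794). In the 12 fits that left out a library, the call held 6 times for CMT3, 4 times for DDM1 and 3 times for AGO4. The WT 23 °C libraries of AGO4 spanned almost the whole range, with the library labelled WT 23 °C A beside the vim1-3 libraries and WT 23 °C B beside the WT 29 °C libraries. AGO4 in WT 29 °C over WT 23 °C was 0.21 (SE 0.12, adjusted p = 0.179) with all libraries and 0.50 without WT 23 °C B and C, which leaves only the library labelled WT 23 °C A as reference. In vim1-3 over WT 23 °C it was −0.29 (SE 0.12, adjusted p = 0.103) with all libraries and −0.43 (adjusted p = 0.00275) without the library labelled WT 23 °C A.

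MET1 (AT5G49160), the CG methyltransferase that VIM proteins serve, did not pass but was ordered differently from CMT3 and DDM1. It had 322, 357 and 364 in WT 29 °C, 439.6, 416 and 464 in OE APOLO-1, 324, 319 and 302 in the vim1-3 libraries and 435, 334 and 378 in WT 23 °C. OE APOLO-1 lay above all vim1-3 and WT 29 °C libraries, with 0.48 (SE 0.10, adjusted p = 0.0180) over vim1-3, and WT 29 °C over OE APOLO-1 was −0.34 (SE 0.10, adjusted p = 0.0385). Without the library labelled WT 23 °C A, which enters these 2 comparisons only through the shared estimate of the spread, the values were 0.48 (adjusted p = 0.00144) and −0.34 (adjusted p = 0.00918). MET1, CMT3 and DDM1 are used most in dividing cells, and a list of 25 S phase and division genes was read beside them. Its summed level was 5371, 5860 and 5587 in WT 29 °C, 6804, 6630 and 6612 in OE APOLO-1, 4265, 3970 and 4264 in the vim1-3 libraries, and 6437, 4238 and 4944 in WT 23 °C. Of these 25 genes, 7 rose in WT 29 °C relative to vim1-3 and none fell, beside 6.75% of all genes that rose and 6.88% that fell. Among the 7 were TSO2, a ribonucleotide reductase subunit (log2 value 0.96, adjusted p = 0.000361), MCM5 of the replicative helicase (0.69, adjusted p = 0.00156) and PCNA2, the sliding clamp (0.76, adjusted p = 0.00230), of whose exonic bases 23.6% overlap a gene on the opposite strand. In OE APOLO-1 relative to vim1-3 1 of the 25, TSO2, rose (1.22, adjusted p = 0.000504) and none fell, beside 0.581% and 1.29% of all genes. All 25 log2 values were above 0, as were 10097 of those of all 20664 genes. Relative to WT 23 °C, 2 rose in WT 29 °C and 3 rose in OE APOLO-1, beside 7.88% and 2.60% of all genes. TSO2 alone fell in vim1-3 (−0.91, adjusted p = 0.00198), beside 4.45% of all genes. In WT 29 °C relative to OE APOLO-1 1 fell, beside 3.47% of all genes. Without the library labelled WT 23 °C A, 7 rose in WT 29 °C, 11 rose in OE APOLO-1 and 1 fell in vim1-3 relative to WT 23 °C. Of all genes, 7135, 6133 and 5616 were then called, against 4264, 2126 and 1371 with all libraries. The sum in the library labelled WT 23 °C A lay above every WT 29 °C library, whereas those of WT 23 °C B and C lay below them. The comparisons among the other groups moved too, through the shared estimate of the spread. In OE APOLO-1 relative to vim1-3, 11 rose without the library labelled WT 23 °C A, where 1629 of all genes were called, against 387 with all libraries. Under that setting 4 fell in WT 29 °C relative to OE APOLO-1 (3648 of all genes called, against 1689). Relative to vim1-3, 7 then rose in WT 29 °C (5119 of all genes called, against 2816). The part of this list in the values of CMT3, DDM1, MET1 and VIM1 was not tested.

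Few of the 40 members were called in any comparison. In WT 29 °C relative to WT 23 °C, 2 of the 37 tested rose, VIM6 and SUVH4, and 2 fell, VIM2 and DML2, beside 7.88% of all genes tested that rose and 12.8% that fell. The median log2 value of the members was 0.07, against −0.01 over all genes. Groups did not overlap in 15 of the 37 (11 higher and 4 lower in WT 29 °C), beside 43.9% of all genes. Leaving out the library labelled WT 23 °C A gave 7 calls among 38 members tested. VIM1, VIM5, VIM6, DDM1 and SUVH4 rose and VIM2 and DML2 fell. VIM5 did not pass the count filter with all libraries. It entered this fit through its WT 29 °C counts, so its rise there carries no weight of its own. Under that setting 7135 of all genes were called, against 4264 with all libraries. Calls were not counted without WT 23 °C B and C, which leaves only the library labelled WT 23 °C A as reference. The 33 not called ran from −0.40 for IDN2 to 0.76 for VIM1, with a lowest adjusted p of 0.0153 for DDM1.

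OE APOLO-1 and vim1-3 were compared with the same WT 23 °C libraries, so their values share that reference. In OE APOLO-1 none of the 37 rose and 2 fell, VIM2 and DML2, beside 2.60% of all genes that rose and 7.68% that fell. An unadjusted p under 0.05 in edgeR was found for 8 of the 37, beside 7511 of all 20664 genes tested. The median was 0.04, against −0.03 over all genes, and 8 of the 37 did not overlap (5 higher, 3 lower), beside 33.5% of all genes. In vim1-3 none rose and only VIM1, the disrupted gene, fell, beside 2.19% of all genes that rose and 4.45% that fell. Here the median was −0.05, against −0.03 over all genes, and 15 of the 37 did not overlap (9 higher, 6 lower), beside 36.2% of all genes. Without the library labelled WT 23 °C A, VIM1 and VIM3 rose in OE APOLO-1 and VIM2, DML2 and NRPD2 fell, and in vim1-3 VIM4 rose and VIM1, DML2, NRPD2 and AGO4 fell. Of all genes, 6133 in OE APOLO-1 and 5616 in vim1-3 were then called, against 2126 and 1371 with all libraries. For these 2 lines, too, calls were not counted without WT 23 °C B and C.

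The 3 comparisons without WT 23 °C gave few calls as well. OE APOLO-1 differed from vim1-3 by VIM1 alone, which was higher, beside 0.581% of all genes that were higher in OE APOLO-1 and 1.29% that were lower. In this pair 11 of the 37 did not overlap (7 higher, 4 lower), beside 36.5% of all genes, and the median was 0.02, against −0.01 over all genes. WT 29 °C differed from OE APOLO-1 by VIM6 alone, which was higher, beside 4.70% of all genes higher in WT 29 °C and 3.47% lower. Of the 37, 16 did not overlap (9 higher, 7 lower), beside 42.2% of all genes, with a median of 0.08, against −0.01. WT 29 °C differed from vim1-3 by 5 members, of which VIM1, CMT3, DDM1 and AGO4 were higher and VIM4 was lower, beside 6.75% of all genes higher and 6.88% lower. There 16 of the 37 did not overlap (13 higher, 3 lower), beside 54.1% of all genes, and the median was 0.12, against −0.00. The library labelled WT 23 °C A entered these comparisons only through the estimate of the spread and the count filter. Without it 38 members were tested, VIM5 among them, and those called numbered 2, 3 and 7. Calls over all genes then numbered 1629, 3648 and 5119, against 387, 1689 and 2816 with all libraries.

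**Figure D2:**
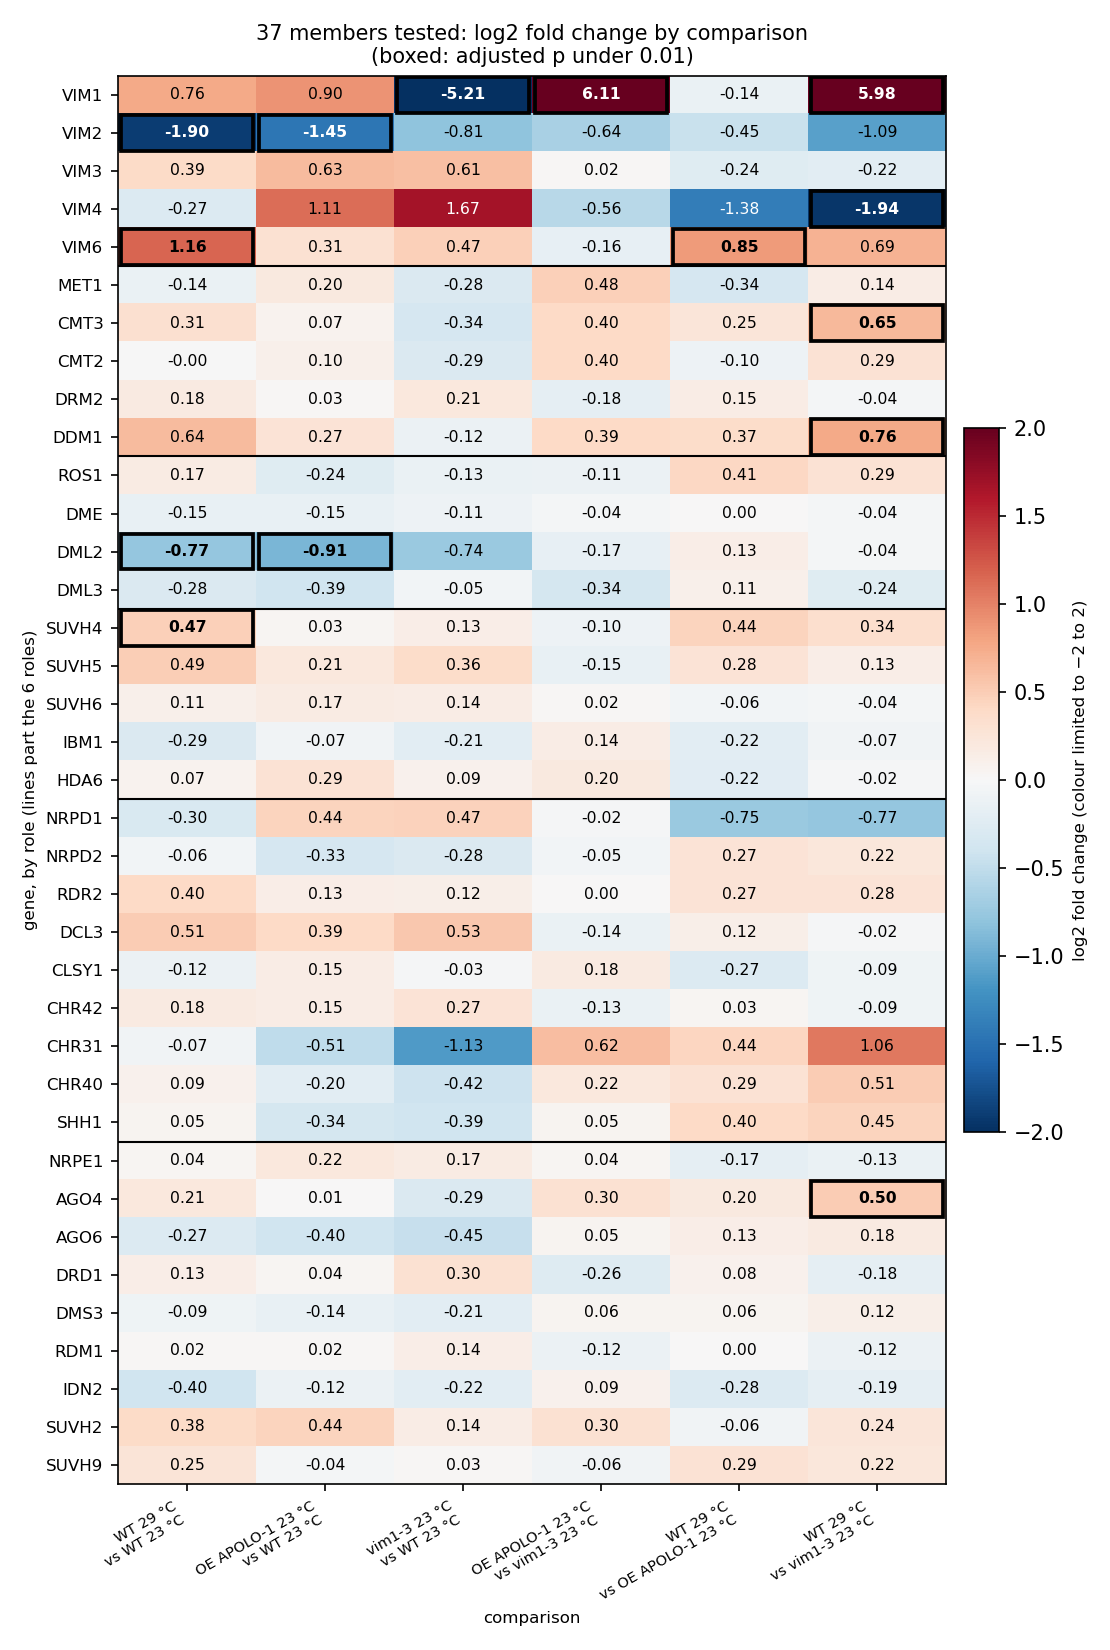
Log2 fold changes of the 37 members tested (rows, by role) in the 6 comparisons (columns, first-named over second-named group), with adjusted p under 0.01 boxed and colours limited at ±2. The boxes number 4, 2, 1, 1, 1 and 5, and 8 of the 14 are in the VIM rows.

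The Pol IV and Pol V branches of RdDM hold 19 of the members. Of these 18 were tested, and the only call among them in the 6 comparisons was AGO4 in WT 29 °C over vim1-3. The Pol IV branch (9 genes) summed to 847 ± 56.1 in WT 29 °C, 772 ± 60.2 in OE APOLO-1, 770.3 ± 36.5 in vim1-3 and 823 ± 131 in WT 23 °C, and the Pol V branch (10 genes) to 1958 ± 7.86, 1811 ± 21.1, 1756 ± 92.5 and 1791 ± 43.2 in the same groups (SD, n = 3 each). In the Pol IV branch, NRPD1 (AT1G63020), the largest subunit of Pol IV, had 25.2, 40.9 and 32.7 in WT 29 °C, 62.3, 54.1 and 50.3 in OE APOLO-1, 56.0, 71.6 and 43.4 in the vim1-3 libraries and 44.0, 43.2 and 32.4 in WT 23 °C. The WT 29 °C libraries lay below all of OE APOLO-1 and vim1-3, at −0.75 (SE 0.25, adjusted p = 0.0553) over OE APOLO-1 and −0.77 (SE 0.25, adjusted p = 0.0373) over vim1-3, neither of which passed. NRPD2 (AT3G23780), the catalytic subunit shared by Pol IV and Pol V, had 368, 357 and 353 in WT 29 °C, 310.0, 297 and 288 in OE APOLO-1, 299, 319 and 307 in the vim1-3 libraries and 279.7, 468 and 378 in WT 23 °C. The WT 23 °C libraries again differed among themselves. OE APOLO-1 over WT 23 °C was −0.33 (SE 0.15, adjusted p = 0.123) with all libraries, −0.52 (adjusted p = 0.000753) without the library labelled WT 23 °C A and 0.09 without WT 23 °C B and C.

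RDR2 (AT4G11130), the RNA polymerase that makes Pol IV transcripts double-stranded, ranged over all 12 libraries between 68.5 and 119, and DCL3 (AT3G43920), which dices them, between 32.4 and 86.6. CLSY1 (AT3G42670), a remodeller that brings Pol IV to chromatin, was at 92.4 to 121 in WT 29 °C, 123 to 137 in OE APOLO-1, 112 to 123 in vim1-3 and 100.2 to 134 in WT 23 °C. SHH1 (AT1G15215), a reader of histone H3 methylation that recruits Pol IV, was at 103 to 152, 77.2 to 114, 84.4 to 99.6 and 99.3 to 154 in the same groups. The SNF2-type remodeller genes CHR42 (AT5G20420), CHR31 (AT1G05490) and CHR40 (AT3G24340) were low, at 24.3 or less in every library. CHR31 had the widest spread of log2 values among them, from −1.13 for vim1-3 over WT 23 °C (adjusted p = 0.134) to 1.06 for WT 29 °C over vim1-3 (adjusted p = 0.138), on 2.16 to 16.9 normalised counts in WT 23 °C alone.

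In the Pol V branch, NRPE1 (AT2G40030), the largest subunit of Pol V, was at 126 to 143 in WT 29 °C, 146 to 161 in OE APOLO-1, 141 to 155 in vim1-3 and 108 to 161 in WT 23 °C. DRD1 (AT2G16390), DMS3 (AT3G49250) and RDM1 (AT3G22680), which together help Pol V onto chromatin, had log2 values of −0.26 to 0.30, both ends being those of DRD1. IDN2 (AT3G48670), an RNA-binding protein of the pathway, had −0.40 in WT 29 °C over WT 23 °C (adjusted p = 0.0715) as its largest value in size. SUVH2 (AT2G33290) and SUVH9 (AT4G13460), which bind methylated DNA and recruit Pol V, were not called. SUVH2 was at 110.3 to 118 in WT 29 °C, 111 to 133 in OE APOLO-1, 89.0 to 106 in vim1-3 and 76.8 to 99.1 in WT 23 °C. Its OE APOLO-1 libraries lay above those of WT 23 °C at 0.44 (SE 0.15, adjusted p = 0.0455). SUVH9 was at 637 to 672, 501 to 556, 502 to 661 and 532 to 577 in the same groups. AGO6 (AT2G32940), a relative of AGO4, was at 20.03 to 48.5 over all libraries. AGO9 (AT5G21150), known for its role in the germ line, did not pass the filter with 5, 5 and 3 raw counts in WT 29 °C, 7, 5 and 6 in OE APOLO-1, 9, 6 and 10 in the vim1-3 libraries and 3, 7 and 1 in WT 23 °C. For DMS3, RDM1 and SUVH6, 54.6%, 68.4% and 40.7% of exonic bases overlap a gene on the opposite strand. Since the use of strand in the counting is not given in the sources used here, their levels are uncertain.

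Among the remaining DNA methyltransferases, CMT2 (AT4G19020), which methylates CHH sites in heterochromatin, was at 185 to 225 in WT 29 °C, 192 to 229.9 in OE APOLO-1, 157 to 177 in vim1-3 and 168 to 238 in WT 23 °C. DRM2 (AT5G14620), the end point of RdDM, was at 179.8 to 206 in WT 29 °C, 169 to 179 in OE APOLO-1, 198.7 to 199.3 in vim1-3 and 169.7 to 173 in WT 23 °C. The related DRM1 (AT5G15380) did not pass the filter, with 3, 5 and 3 raw counts in WT 29 °C, 2, 1 and 1 in OE APOLO-1, 0, 1 and 0 in the vim1-3 libraries and 4, 1 and 0 in WT 23 °C. Of the other demethylases, ROS1 (AT2G36490), the main demethylase of vegetative tissue, was at 92.4 to 119 in WT 29 °C, 78.2 to 82.6 in OE APOLO-1, 83.7 to 90.2 in vim1-3 and 85.5 to 119 in WT 23 °C. DME (AT5G04560), known from the companion cells of the gametes, was at 537 to 698 in all libraries, and DML3 (AT4G34060) at 8.97 to 31.6. Neither ROS1, DME nor DML3 passed in any comparison. Their log2 values against WT 23 °C were 0.17, −0.15 and −0.28 in WT 29 °C, beside −0.77 for DML2.

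The histone-modifying members other than SUVH4 did not pass either. SUVH5 (AT2G35160), which overlaps SUVH4 in function, was at 38.4 to 53.8 in WT 29 °C, 32.6 to 45.7 in OE APOLO-1, 38.6 to 44.5 in vim1-3 and 28.1 to 38.0 in WT 23 °C. It stood at 0.49 (SE 0.22, adjusted p = 0.105) in WT 29 °C over WT 23 °C. SUVH6 (AT2G22740), the remaining enzyme of that trio, was at 206 to 273 in all libraries. IBM1 (AT3G07610), a histone H3 demethylase that keeps CHG methylation out of gene bodies, stood at −0.29 (SE 0.11, adjusted p = 0.0522) in WT 29 °C over WT 23 °C. HDA6 (AT5G63110), a histone deacetylase that works with MET1, was at 329 to 359 in WT 29 °C, 385 to 402 in OE APOLO-1, 326 to 365 in vim1-3 and 285 to 356 in WT 23 °C. OE APOLO-1 lay above all other libraries, but its 0.29 (SE 0.09, adjusted p = 0.0438) over WT 23 °C did not pass.

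Per kb of annotated exon, the members spanned a wide range of levels in WT 23 °C. The highest members were SUVH9 with 194 ± 8.70, HDA6 with 173 ± 19.0 and AGO4 with 133 ± 22.9 normalised counts per kb, and the lowest were VIM5 with 0.437 ± 0.411, DRM1 with 0.762 ± 0.897 and AGO9 with 1.32 ± 0.942 (SD, n = 3 libraries). Between neighbours in both trios the intervals of mean ± SD overlapped. Of the VIM genes, VIM1 had 72.4 per kb in WT 29 °C, 79.7 in OE APOLO-1, 1.19 in vim1-3 and 43.0 in WT 23 °C, and VIM3 had 40.8, 48.3, 47.2 and 31.4 in the same groups. VIM3 was therefore the most abundant VIM transcript per kb in vim1-3, and VIM1 in the other 3 groups. VIM1 and VIM3 were within their spread of each other in WT 23 °C (SD 12.2 for VIM1 and 9.91 for VIM3). Dividing by coding length instead moved the rank of 38 of the 40 genes by 3 places or fewer, the exceptions being DMS3 and RDM1.

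**Figure D3:**
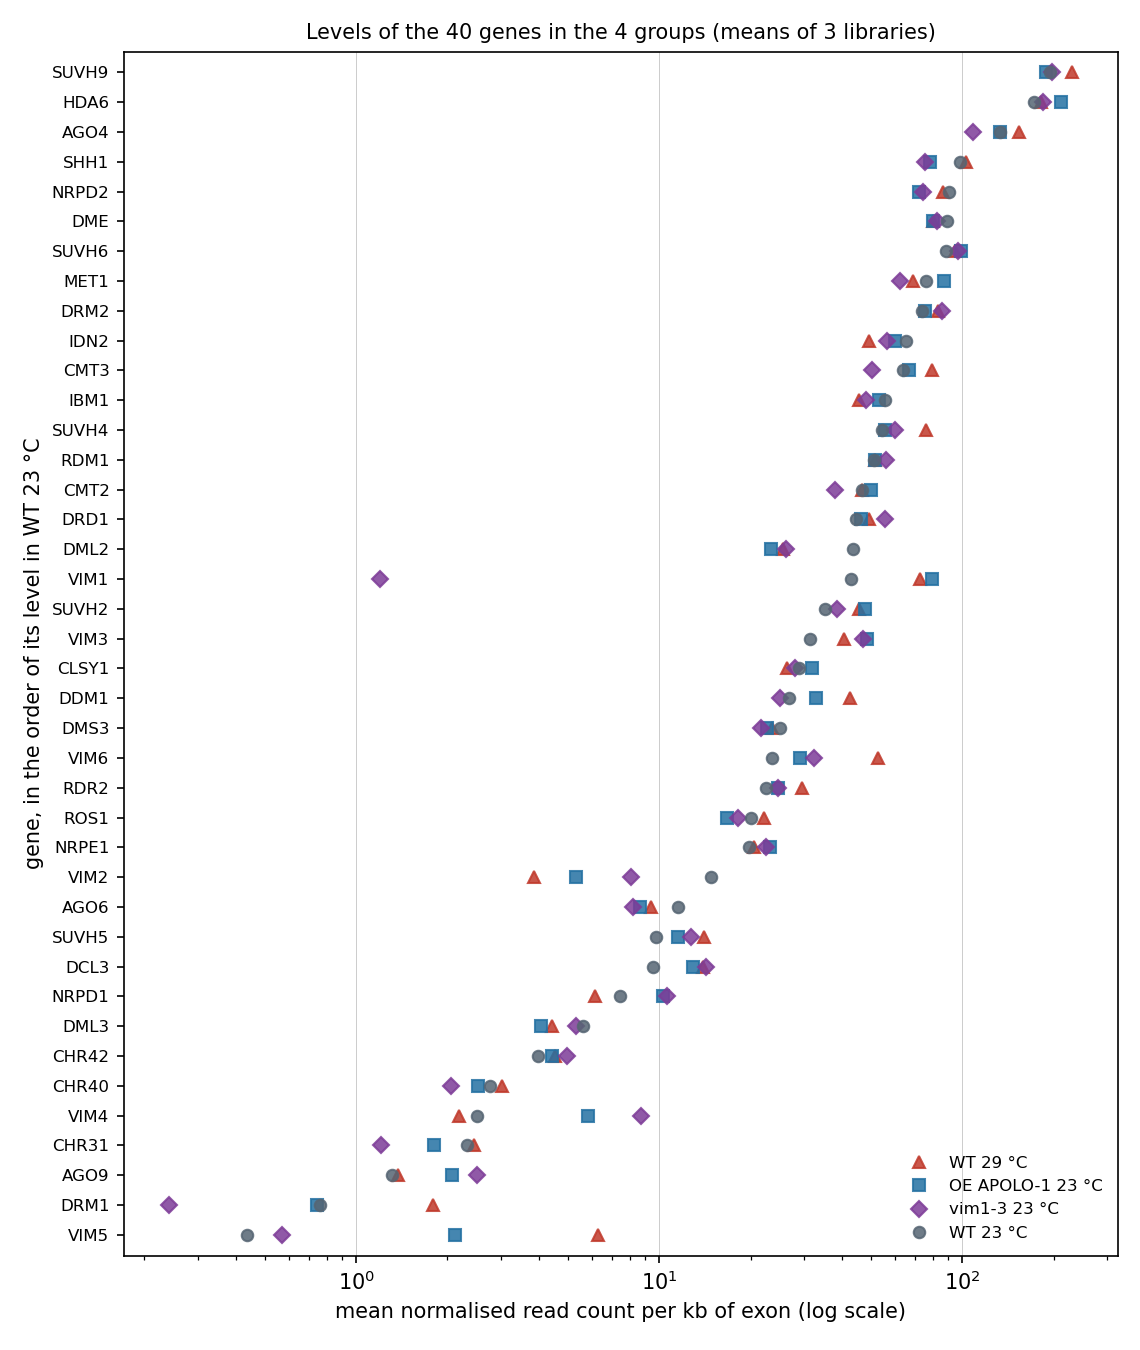
Mean normalised read counts per kb of exon (log axis) of the 40 members in the 4 groups, n = 3 libraries each, in order of the WT 23 °C level. Values ran from 0.437 for VIM5 to 194 for SUVH9 in WT 23 °C, and VIM1 in vim1-3 stood at 1.19, against 43.0 in WT 23 °C.

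The sequences upstream of VIM2, VIM4 and VIM6 are shown because VIM2 and VIM4 are near-copies in their coding part that were ordered differently across the groups, and VIM6 is the VIM gene called higher in WT 29 °C relative to WT 23 °C with all libraries and the count filter. Each line gives the 250 bases before the annotated start on the sense strand of TAIR10.1, with capitals at the words found by the search described next.
VIM2 chr1:24589093-24589342 plus strand: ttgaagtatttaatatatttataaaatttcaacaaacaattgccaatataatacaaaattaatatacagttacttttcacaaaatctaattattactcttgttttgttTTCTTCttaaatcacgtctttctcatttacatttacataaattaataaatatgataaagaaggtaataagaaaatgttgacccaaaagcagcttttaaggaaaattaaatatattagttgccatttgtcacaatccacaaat
VIM4 chr1:24586761-24587010 minus strand: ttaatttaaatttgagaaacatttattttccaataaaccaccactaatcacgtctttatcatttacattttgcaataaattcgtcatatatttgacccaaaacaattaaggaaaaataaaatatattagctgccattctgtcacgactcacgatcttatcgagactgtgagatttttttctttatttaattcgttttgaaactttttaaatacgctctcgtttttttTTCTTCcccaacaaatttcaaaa
VIM6 chr4:5466748-5466997 minus strand: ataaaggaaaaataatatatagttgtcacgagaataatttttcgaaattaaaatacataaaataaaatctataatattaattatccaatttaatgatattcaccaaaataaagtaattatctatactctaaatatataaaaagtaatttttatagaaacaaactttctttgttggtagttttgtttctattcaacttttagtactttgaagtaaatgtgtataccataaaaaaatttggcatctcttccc

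In the window from 250 bases before to 50 after the start, both strands of 27443 protein-coding genes were searched for 4 E2F words (TTTCCCGC, TTTGGCGC, TTTGCCGC and TTTCGCGC), the G-box CACGTG, the heat shock element and the word GAAGAA, whose other strand reads TTCTTC. An E2F word was present in 2 of the 40 members (5.00%), CMT3 and ROS1, against 1.76% of all genes and 8 of the 25 S phase genes (32.0%). The G-box was present in 2 members (5.00%), CMT2 and DML2, against 7.68% of all genes. GAAGAA was present in 18 members (45.0%), VIM1, VIM2, VIM4 and VIM5 among them, against 39.4% of all genes. The heat shock element was found in none of the 40, against 0.481% of all genes, and VIM6 held none of these words. A match is only a match of letters in this window.

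The wider pathway was read from a list of 37 further genes of DNA methylation and its chromatin, of which 35 were tested. In WT 29 °C relative to WT 23 °C 1 rose and 3 fell, beside 7.88% of all genes that rose and 12.8% that fell. Relative to WT 23 °C none rose and 2 fell in OE APOLO-1 (2.60% and 7.68% of all genes), and none rose and 1 fell in vim1-3 (2.19% and 4.45%). None passed in OE APOLO-1 relative to vim1-3 in edgeR, where 9 of the 35 had an unadjusted p under 0.05, beside 4164 of all 20664 genes tested. In WT 29 °C 1 was higher and 3 were lower relative to OE APOLO-1 (4.70% and 3.47% of all genes), and 4 were higher and none lower relative to vim1-3 (6.75% and 6.88%). Without the library labelled WT 23 °C A, 4 rose and 3 fell in WT 29 °C, 1 rose and 4 fell in OE APOLO-1 and 1 fell in vim1-3, all relative to WT 23 °C. Of all genes, 7135, 6133 and 5616 were then called, against 4264, 2126 and 1371 with all libraries. Under that setting 1 was higher in OE APOLO-1 relative to vim1-3. In WT 29 °C 3 were higher and 4 lower relative to OE APOLO-1, and 5 were higher and 2 lower relative to vim1-3. Calls over all genes in these 3 comparisons then numbered 1629, 3648 and 5119, against 387, 1689 and 2816. ASI1 (AT5G11470), an RNA-binding protein needed for full-length transcripts of genes with intronic heterochromatin such as IBM1, had 98.7, 80.7 and 120.1 normalised counts in WT 29 °C, 45.7, 38.2 and 44.7 in OE APOLO-1, 33.8, 40.1 and 50.2 in the vim1-3 libraries and 118, 123 and 106 in WT 23 °C. The OE APOLO-1 and vim1-3 libraries all lay below both wild-type groups. ASI1 fell by 1.44 on the log2 scale in OE APOLO-1 (SE 0.20, adjusted p = 0.000784) and by 1.49 in vim1-3 (SE 0.20, adjusted p = 0.00139) relative to WT 23 °C, while WT 29 °C over WT 23 °C was −0.22 (SE 0.19, adjusted p = 0.401). Leaving out the library labelled WT 23 °C A gave −1.44 (adjusted p = 9.00e-05) for OE APOLO-1 and −1.48 (adjusted p = 7.82e-05) for vim1-3. Without WT 23 °C B and C the log2 values were −1.47 and −1.51. WT 29 °C over OE APOLO-1 was 1.22 (SE 0.20, adjusted p = 0.00155) and over vim1-3 1.27 (SE 0.20, adjusted p = 0.000762). IBM1 itself was at 208 to 219.8 in WT 29 °C, 235 to 254 in OE APOLO-1, 205 to 242 in vim1-3 and 240.1 to 292 in WT 23 °C.

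SUVR2 (AT5G43990), a SET-domain protein of transcriptional silencing, rose in WT 29 °C, at 0.83 (SE 0.20, adjusted p = 0.00748) over WT 23 °C and 1.14 (SE 0.20, adjusted p = 0.00161) over vim1-3. Over WT 23 °C it was 0.85 (adjusted p = 0.00770) without the library labelled WT 23 °C A and 0.80 without WT 23 °C B and C. AT2G30620 and AT1G06760, annotated by RefSeq as winged-helix DNA-binding proteins, fell in WT 29 °C. The log2 values of AT2G30620 were −0.56 (SE 0.08, adjusted p = 0.000683) over OE APOLO-1 and −0.44 (SE 0.08, adjusted p = 0.00147) over WT 23 °C. Those of AT1G06760 were −0.74 (SE 0.11, adjusted p = 0.00109) over OE APOLO-1 and −0.54 (SE 0.11, adjusted p = 0.00337) over WT 23 °C, and its level is uncertain because 41.9% of its exonic bases overlap genes on the opposite strand. Over WT 23 °C they were −0.43 (adjusted p = 0.000681) for AT2G30620 and −0.60 (adjusted p = 0.000324) for AT1G06760 without the library labelled WT 23 °C A, and −0.44 and −0.41 without WT 23 °C B and C.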

How the data were processed

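RNA-Seq libraries (TruSeq, NextSeq500, 75-base reads) were trimmed, cleared of ribosomal RNA, aligned and counted by the authors. The labels and methods name Trimmomatic 0.36, SortMeRNA, STAR 2.5.2b and featureCounts of Subread 1.6.5, on the TAIR10 genome with the Araport11 annotation. The deposited files hold raw read counts per gene, 1 file for each of 12 libraries. The use of strand and the treatment of reads with several matches are not given in the sources used here. Genes were filtered with edgeR's filterByExpr, libraries scaled by TMM factors, and a quasi-likelihood model (edgeR 4.0.16, R 4.3.3) fitted to all 12 libraries with group as the only term, so that 6 comparisons share 1 estimate of the spread. P-values were adjusted by the Benjamini-Hochberg method over the 20664 genes tested, with 0.01 as the threshold. On simulated counts for WT 29 °C against WT 23 °C over 20664 genes, 45 of 100 genes changed 2-fold and 95 of 100 changed 4-fold were called, with 0 false calls. These numbers describe the simulated counts only. Among the real libraries, the median SD of log2 levels was 0.242 for WT 23 °C, against 0.139 for WT 29 °C. Recovery and false calls under that uneven spread were not tested. The fit was repeated with DESeq2 1.42.0, with upper-quartile or RLE factors, on the 6 libraries compared, with other filters, a replicate block, a threshold of 0.05, VIM2 and VIM4 merged and each library left out, and, added after seeing the data, WT 23 °C B and C left out together.

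The 40 members and all gene lists were chosen with earlier results of these data known. The VIM genes and each member past the threshold in any comparison were given by library, the other members by range. Of the list of other pathway genes, up to 4 of lowest adjusted p were named, and of the S phase list up to 3. Replicates differed by 2.94 to 82.1 times the counting variance (chi-square per degree of freedom), so none were counted as duplicates. Same-lettered libraries of different groups deviated together (r above 0.1) in 2 of 18 pairs, so letters were not taken to pair samples. Gene models, coordinates and sequences came from RefSeq (TAIR10.1), which matched all 40 identifiers, and p-values measure the spread between the deposited libraries. Depth per library was 8824476 to 22925019 counts, and intervals and floors cover counting error only.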

Additional observations from a re-analysis of the deposited data

How the results depend on the processing

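No direction turned round under any alternative for a member in a comparison where it was called. With 1 library left out at a time, the members called numbered 2 to 7 in WT 29 °C against WT 23 °C, 0 to 5 in OE APOLO-1 against WT 23 °C, 1 to 5 in vim1-3 against WT 23 °C, 1 to 2 in OE APOLO-1 against vim1-3, 0 to 3 in WT 29 °C against OE APOLO-1 and 1 to 7 in WT 29 °C against vim1-3, in each case with the most calls without the library labelled WT 23 °C A. Among these fits, that setting also called the most of all genes in each comparison. In WT 29 °C against WT 23 °C it called 7135, against 4264 with all libraries. That setting tested 38 members, VIM5 among them. Of the 12 such fits, the call of VIM1 held in all 12 in each of its 3 comparisons, as did VIM2 and VIM6 in WT 29 °C against WT 23 °C. DML2 held in 9 in WT 29 °C (not without WT 23 °C B, WT 29 °C A or WT 29 °C B) and in 9 in OE APOLO-1 (not without any of the OE APOLO-1 libraries). SUVH4 held in 4 (without the library labelled WT 23 °C A or any OE APOLO-1 library) and VIM2 in OE APOLO-1 in 1 (without the library labelled WT 23 °C A). VIM6 against OE APOLO-1 held in 2, and VIM4, CMT3, DDM1 and AGO4 in WT 29 °C against vim1-3 held in 3, 6, 4 and 3. These 5 calls were lost without any single library of the groups compared.

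RLE factors gave 1 call for OE APOLO-1 against WT 23 °C and 0 for WT 29 °C against OE APOLO-1, and upper-quartile factors gave 1 for OE APOLO-1 against WT 23 °C. Of all genes, RLE factors called 2079 and 1651 in these comparisons, and upper-quartile factors called 2157. DESeq2 on 12 libraries gave 2 for vim1-3 against WT 23 °C and 2 for OE APOLO-1 against vim1-3, where 2893 and 1071 of all genes were called. DESeq2 on the 6 libraries compared gave 2 for WT 29 °C against WT 23 °C, 1 for OE APOLO-1 against WT 23 °C and 2 for OE APOLO-1 against vim1-3. EdgeR on the 6 libraries compared gave 0 in each comparison with WT 23 °C and 2 for OE APOLO-1 against vim1-3. In those comparisons with WT 23 °C it called 1009, 2 and 1 of all genes (DESeq2 on the same libraries 3278, 1916 and 1494). For OE APOLO-1 against vim1-3 it called 2146 of all genes (DESeq2 on the same libraries 2118). Without a filter, 1 was called for OE APOLO-1 against WT 23 °C and 0 for WT 29 °C against OE APOLO-1, beside 2042 and 1611 of all genes. Requiring at least 10 counts in every library gave 1 for OE APOLO-1 and 0 for vim1-3 against WT 23 °C, 0 for OE APOLO-1 against vim1-3 and 3 for WT 29 °C against vim1-3, since this filter drops VIM1, VIM2 and VIM4. Of all genes 1686, 1102, 393 and 2767 were then called. At a threshold of 0.05, 5 and 3 were called for OE APOLO-1 and vim1-3 against WT 23 °C, 2 for OE APOLO-1 against vim1-3, 3 for WT 29 °C against OE APOLO-1 and 9 for WT 29 °C against vim1-3. Calls over all genes in these comparisons then numbered 4701, 4127, 1158, 3690 and 5348. Without WT 23 °C B and C calls were not counted, since only the library labelled WT 23 °C A then stands for WT 23 °C. With the replicate block, 1 was called for OE APOLO-1 against WT 23 °C, 0 for WT 29 °C against OE APOLO-1 and 1, VIM1, for WT 29 °C against vim1-3. The block left 1624, 1194 and 2213 of all genes called. Same-lettered libraries correlated from −0.22 to 0.19 in their deviations, so the block joins samples that share only a letter. Single values under settings other than leaving out 1 library were followed for the tested VIM genes and the other members called in any comparison. Over all 6 comparisons, 536 of 584 kept their side of the threshold, 18 passed it newly and 30 lost it. This tally includes the setting without WT 23 °C B and C, in which WT 23 °C has no spread of its own. Most of the 584 belong to comparisons in which the gene was not called, and only called ones could lose the threshold. Other causes of these changes were not tested.

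Depth limits the members with few reads, such as VIM2 (8 to 32 counts a library), VIM4 (2 to 25), VIM5 (0 to 17), DRM1 (0 to 5), AGO9 (1 to 10), CHR31 (1 to 16) and CHR40 (4 to 13).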
